A study of Homo sapiens with 12 samples.

Results

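Metallothioneins and the genes that set cellular zinc were followed in macrophages of THP-1, a single human line that derives from a monocytic leukaemia. The set holds 10 genes out of 58735 in the count table, chosen by symbol and with earlier results of these data known. They are the metallothioneins MT1E, MT1F, MT1G, MT1M, MT1X and MT2A, the zinc-sensing transcription factor MTF1, the importers SLC39A8 and SLC39A14 and the exporter SLC30A1. One group carried a mimic of the liver-enriched microRNA miR-122-5p and the other a control microRNA mimic, each with 6 libraries. Both groups were transfected with 30 nM of mimic using RNAimax for 24 h, rested, and then given lipopolysaccharide (LPS) for 4 h, so neither group shows the cells without LPS or without transfection. Whether the 6 libraries of a group are separate cultures is not stated, so p-values here reflect the spread among these libraries, which may be technical.

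Metallothioneins are small cysteine-rich proteins that hold zinc and copper, and they buffer the free metal in the cytosol. When free zinc rises, MTF1 binds metal response elements in the promoters of metallothionein genes and of SLC30A1 and raises their transcription. SLC39 proteins (ZIP family) bring zinc into the cytosol and SLC30 proteins (ZnT family) take it out, into vesicles or across the plasma membrane. In monocytes and macrophages, inflammatory stimuli are known to induce metallothioneins and the importers ZIP8 (SLC39A8) and ZIP14 (SLC39A14).

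The microRNA is shown because it is what separates the groups. Its mature sequence, from RefSeq (GRCh38.p14, plus strand, chr18:58451088-58451109), has its seed (bases 2 to 8) in capitals.
hsa-miR-122-5p: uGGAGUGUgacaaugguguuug
The longest annotated 3′ UTR of each of the 10 genes was searched for matches to this seed. None of the 10 held an 8mer or 7mer match, against 3.50% of 12892 tested genes with an 8mer, 6.27% with a 7mer-m8 and 16.0% with a 7mer-A1 as their strongest class. These shares were not matched for length. The 3′ UTRs searched were 144 to 393 bases long in the metallothioneins, which leaves little room for a match, and 2381 to 5569 in the other genes. MTF1 and SLC39A8 each held 1 match to the 6 bases opposite positions 2 to 7 only, the weakest class, which was the strongest class in 14.2% of tested genes. Genes of that class had a median log2 fold change (miR-122-5p over control mimic) of 0.073, against 0.001 with no match. The median was -0.078 with an 8mer, -0.042 with a 7mer-m8 and -0.038 with a 7mer-A1. The part of the matches in MTF1 and SLC39A8 was not tested. These 28-base windows (hg38, minus strand of chr1:37812953-37812980 and of chr4:102252432-102252459) have the match in capitals.
MTF1 site: ttgaccttctgCACTCCcttccccaaaa
SLC39A8 site: cctccctgggcCACTCCctgtccccaga

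The 6 metallothionein genes lie together on chromosome 16 (56608199 to 56684196, hg38), in the order MT2A, MT1E, MT1M, MT1F, MT1G and MT1X, and all but MT1G are on the plus strand. All 10 genes are annotated as protein-coding. RefSeq promoter windows matched 5 of the 10 genes: MT2A, MT1X, MTF1, SLC30A1 and SLC39A8. The 250 bases before the RefSeq start site were searched on both strands for the core of the metal response element, written as TGCACNC or TGCGCNC. MT2A held 7 matches and MT1X 4, none overlapping another; at least 4 were found in 0.370% of 35116 promoter windows of that length. SLC30A1 held 1 match, SLC39A8 1 in 1 of its 3 windows, and MTF1 0; at least 1 was found in 24.8% of all windows. The windows of MT2A (GRCh38.p14, plus strand, chr16:56608334-56608583) and MT1X (chr16:56682220-56682469) are given with the matches in capitals, because they carry the repeated element in a metallothionein gene that fell and in one that did not pass the test. Both RefSeq start sites lie downstream of the earliest GENCODE start of the gene. The whole MT2A window, with its 7 matches, therefore falls within the annotated extent of MT2A. Of the MT1X window only the last part falls within that of MT1X.
MT2A: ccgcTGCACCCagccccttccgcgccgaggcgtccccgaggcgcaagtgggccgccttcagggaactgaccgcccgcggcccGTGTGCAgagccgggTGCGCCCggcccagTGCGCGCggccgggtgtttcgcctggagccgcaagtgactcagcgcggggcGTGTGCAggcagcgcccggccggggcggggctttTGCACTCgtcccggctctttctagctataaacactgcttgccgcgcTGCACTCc
MT1X: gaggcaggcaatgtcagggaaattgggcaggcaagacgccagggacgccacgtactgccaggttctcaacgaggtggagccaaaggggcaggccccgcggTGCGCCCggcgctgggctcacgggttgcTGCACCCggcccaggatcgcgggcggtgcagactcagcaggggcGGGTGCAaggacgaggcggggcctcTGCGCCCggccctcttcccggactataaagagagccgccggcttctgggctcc

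Libraries held 29473750 to 35684464 counts with miR-122-5p and 31019890 to 39468157 with the control mimic. Over the 15471 genes tested with edgeR, 50.4% passed an adjusted p of 0.05 (24.2% with miR-122-5p higher and 26.2% lower), and fold changes followed transcript GC content. The slope of a library's log2 CPM (counts scaled to library size) on GC content, relative to the mean of the libraries, was 0.034 to 0.229 per 10 percentage points with miR-122-5p and -0.318 to 0.012 with the control mimic, so it did not overlap between the groups. Of the control libraries, 1 and 6 were far from the rest on a principal component each. Of 9 tested macrophage and monocyte markers 2 were higher and 4 lower. The 10 macrophage and monocyte markers summed to 2476 to 3007 CPM with miR-122-5p and 2453 to 2816 CPM with the control mimic. Among them CD68 was near absent (mean 0.239 CPM against 0.216 CPM), while CSF1R, TYROBP and ITGAM were abundant. Of T cell markers, CD3D, CD3E and CD2 had 0 counts in every library. The hepatocyte markers summed to 11.2 to 13.9 CPM with miR-122-5p and 6.51 to 8.63 CPM with the control mimic, nearly all of it APOA1, with ALB at a mean of 0.131 and 0.153 CPM. The B cell markers summed to 3.36 to 4.24 CPM with miR-122-5p and 2.01 to 3.53 CPM with the control mimic, mostly CD79A, with MS4A1 at 6 counts over all libraries. The part of these markers in the results was not tested. In bulk RNA, fewer cells that express a gene and less RNA per cell cannot be told apart.

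With miR-122-5p, 6 of the 10 genes were lower and 0 higher, and 4 did not pass the test, against 26.2% lower and 24.2% higher over all genes tested. The median log2 fold change (miR-122-5p over control mimic) was -0.42 for the 10 genes and 0.007 for all genes tested. Because the genes were chosen with earlier results known, these counts and medians describe the set and are no test of it. All 10 passed the filter on low counts, but MT1M did so through the control libraries, where it was high (6 of 6 control and 2 of 6 miR-122-5p libraries reached the cutoff of 0.288 CPM). Its place among the 6 therefore adds no support. The other falls were those of the exporter SLC30A1, the metal binders MT2A and MT1E, the sensor MTF1 and the importer SLC39A8. The CPM values of the groups did not overlap for MT2A, MTF1 and SLC39A8, 3 of the 10, against 29.5% of all genes tested (16.1% with miR-122-5p lower and 13.4% higher). Without control libraries 1 and 6, a setting added after the data were seen, 5 were lower and 0 higher; of all genes 24.1% were then lower and 23.2% higher (47.3% in all).

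**Figure D1:**
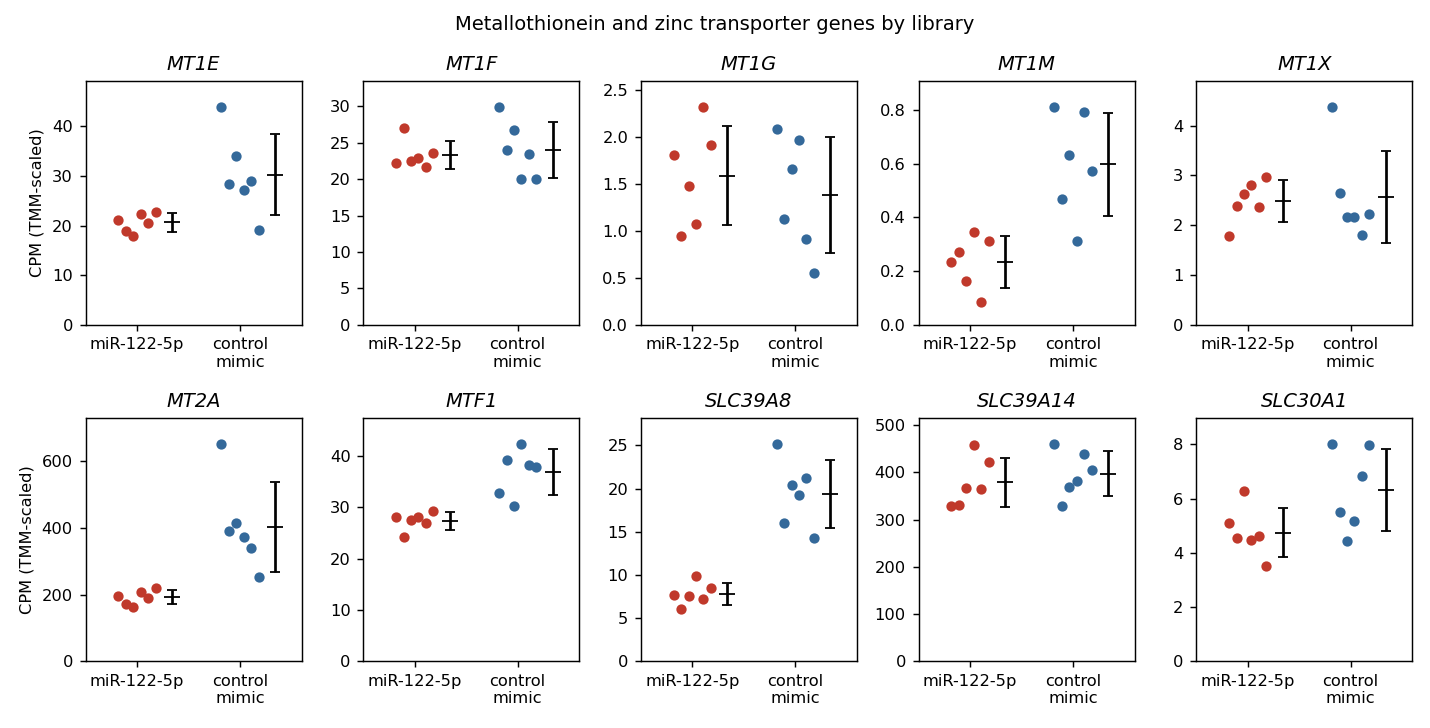
CPM of each of the 10 genes in the 6 miR-122-5p libraries (red, left) and the 6 control mimic libraries (blue, right); each panel has its own scale from 0, and bars give mean ± SD. MT2A, MTF1 and SLC39A8 are lower in every miR-122-5p library than in any control library. The groups overlap for MT1E, MT1M and SLC30A1, which were called lower, and for SLC39A14, MT1F, MT1G and MT1X, which were not called.

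MT2A, the most abundant metallothionein here and the main human isoform of metallothionein 2, had 164.4 CPM in the lowest miR-122-5p library, a median of 192.9 and 220.8 in the highest, against 251.5, 381.3 and 651.9 CPM in the control libraries. Every miR-122-5p library lay under every control library, and the control libraries were the more spread, with library 1 far above the next (415.1 CPM). The means were 191.9 ± 21.2 CPM with miR-122-5p and 403.3 ± 134.4 CPM with the control mimic (SD, n = 6 each). MT2A fell by 1.07 ± 0.18 on the log2 scale (SE; edgeR adjusted p = 0.00036), to 0.476 of the control level. Without control library 1 the log2 fold change was -0.88 (edgeR adjusted p = 1.07e-06), and without control libraries 1 and 6 it was -0.98 (edgeR adjusted p = 1.36e-10).

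MT1E, a metallothionein 1 isoform, moved the same way by less. It had 17.9, 20.9 and 22.7 CPM (lowest, median, highest) with miR-122-5p and 19.1, 28.7 and 43.9 CPM with the control mimic. Of the 6 control libraries 5 lay above every miR-122-5p library, and the exception was control library 6. MT1E fell by 0.55 ± 0.14 (edgeR adjusted p = 0.00224), with means of 20.6 ± 1.87 and 30.3 ± 8.22 CPM. MT1M, at the limit of detection with 3 to 11 counts per miR-122-5p library and 12 to 28 per control library, fell by 1.34 ± 0.43 (edgeR adjusted p = 0.0118). Its lowest, median and highest values were 0.0837, 0.251 and 0.346 CPM with miR-122-5p and 0.310, 0.603 and 0.810 CPM with the control mimic, which overlapped.

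The other metallothionein 1 genes did not pass the test. MT1F was at 21.6, 22.7 and 27.03 CPM with miR-122-5p and at 20.0, 23.7 and 29.9 CPM with the control mimic (lowest, median, highest), a log2 fold change of -0.04 ± 0.10 with a 95% interval of -0.24 to 0.15. MT1G had 0.941 to 2.32 CPM against 0.547 to 2.08 CPM (log2 fold change 0.20 ± 0.30). MT1X had 1.78 to 2.96 CPM against 1.79 to 4.37 CPM (log2 fold change -0.04 ± 0.21). In this fit the 95% intervals of MT1G (-0.39 to 0.79) and MT1X (-0.45 to 0.37) end short of the fall of 0.55 estimated for MT1E. They overlap the interval of MT1E itself (-0.82 to -0.28). With GC and length trends taken out MT1G was at -0.064 ± 0.30 and MT1X at -0.15 ± 0.22 (SE), so a fall of that size is not excluded. Smaller changes were not detectable at this depth.

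Metallothionein copies resemble each other, which bears on how reads are assigned. Of the distinct 50-base words in annotated transcripts, 18.3% of those of MT1X, 16.5% of MT1G, 9.87% of MT1M, 7.10% of MT1E, 3.02% of MT2A and 1.22% of MT1F also occur in another gene. Reads from such stretches may be dropped or split, so MT1X and MT1G are the least certain. For MT1X most of these words are shared with AC026461.1 (14.6% of its words), a gene on the same strand that overlaps 18.1% of its exon length. The share of words is small for MT2A and MT1E, the metallothioneins with most counts among those that fell.

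Per length, the levels in TPM (counts scaled to exon length and library) spanned a wide range. MT2A averaged 421 ± 44.8 TPM with miR-122-5p and 894 ± 315 TPM with the control mimic. MT1E followed with 55.9 ± 4.84 and 82.7 ± 23.6 TPM, then MT1F with 35.2 ± 3.05 and 36.5 ± 6.23 TPM. MT1G (6.04 ± 2.01 and 5.29 ± 2.40 TPM) and MT1X (4.02 ± 0.768 and 4.16 ± 1.61 TPM) did not differ from each other beyond their spread, and MT1M was last (0.708 ± 0.293 and 1.83 ± 0.604 TPM). The 6 genes together gave 209.0 to 272.3 CPM with miR-122-5p (median 240.0) and 293.9 to 732.9 CPM with the control mimic (median 435.5). MT2A made up 77.7 to 81.1% of that sum with miR-122-5p and 85.6 to 89.0% with the control mimic, without overlap between the groups. The other 5 genes summed to 44.7 to 51.5 CPM against 42.4 to 81.0 CPM, which overlapped.

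MTF1, the transcription factor that senses zinc (chromosome 1, 37809567 to 37859620), had 24.3, 27.8 and 29.4 CPM (lowest, median, highest) with miR-122-5p and 30.2, 38.2 and 42.4 CPM with the control mimic. The groups did not overlap. MTF1 fell by 0.43 ± 0.08 (edgeR adjusted p = 0.000186), with means of 27.4 ± 1.71 and 36.8 ± 4.48 CPM (SD, n = 6 each). The call held in all 24 settings, including the main one, with an edgeR, DESeq2 or limma-voom adjusted p of 1.30e-05 to 0.0211. The fall was 0.29 with GC and length trends taken out.

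The importers parted. SLC39A8, which encodes ZIP8, a carrier of zinc, manganese and cadmium (chromosome 4, 102251041 to 102431258), had 6.09, 7.62 and 9.91 CPM (lowest, median, highest) with miR-122-5p and 14.2, 19.8 and 25.2 CPM with the control mimic. All 6 miR-122-5p libraries lay under all 6 control libraries. SLC39A8 fell by 1.31 ± 0.13 (edgeR adjusted p = 1.40e-08), to 0.404 of the control level, with means of 7.82 ± 1.29 and 19.4 ± 3.90 CPM. Its call held in all 24 settings, with log2 fold changes of -1.38 to -0.94. Of all tested genes, 3.26% had a fold change as low or lower.

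SLC39A14, which encodes ZIP14, a carrier of zinc, iron and manganese (chromosome 8, 22367249 to 22434129), was far more abundant and was not called. It had 328.8, 365.7 and 457.7 CPM with miR-122-5p and 329.4, 393.1 and 460.1 CPM with the control mimic (lowest, median, highest). The ranges overlapped almost completely. The log2 fold change was -0.07 ± 0.09 (edgeR adjusted p = 0.534), with a 95% interval of -0.24 to 0.10. With the GC slope of the library as a covariate it turned to 0.38 and was called higher (edgeR adjusted p = 0.0157, over settings 0.0157 to 0.982). Within groups the deviations of SLC39A14 followed the GC slope more closely than those of the other 9 genes (Pearson r = -0.824 over 12 libraries, against -0.501 to 0.0710), and its part in the result was not tested. Per length, SLC39A14 stood at 40.1 to 50.8 times the level of SLC39A8 with miR-122-5p and 16.9 to 26.5 times with the control mimic.

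SLC30A1, which encodes ZnT1, the zinc exporter of the plasma membrane (chromosome 1, 211571568 to 211578742), had 3.52, 4.57 and 6.26 CPM with miR-122-5p and 4.42, 6.16 and 8.01 CPM with the control mimic. The groups overlapped. It fell by 0.41 ± 0.16 (edgeR adjusted p = 0.0386), and this call did not hold in 15 of 24 settings. It ended when any 1 of 8 libraries was left out (control libraries 1, 5 and 6 and every miR-122-5p library but 3). The value was -0.33 without control library 1 (edgeR adjusted p = 0.100), -0.33 without control library 6 (0.109) and -0.20 without both (0.322). With GC and length trends taken out the log2 fold change was -0.06 (edgeR adjusted p = 0.772, over settings 0.0149 to 0.944). Its transcript has 38.0% GC, and the 1820 tested genes within 2 percentage points of that had a median of -0.31.

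**Figure D2:**
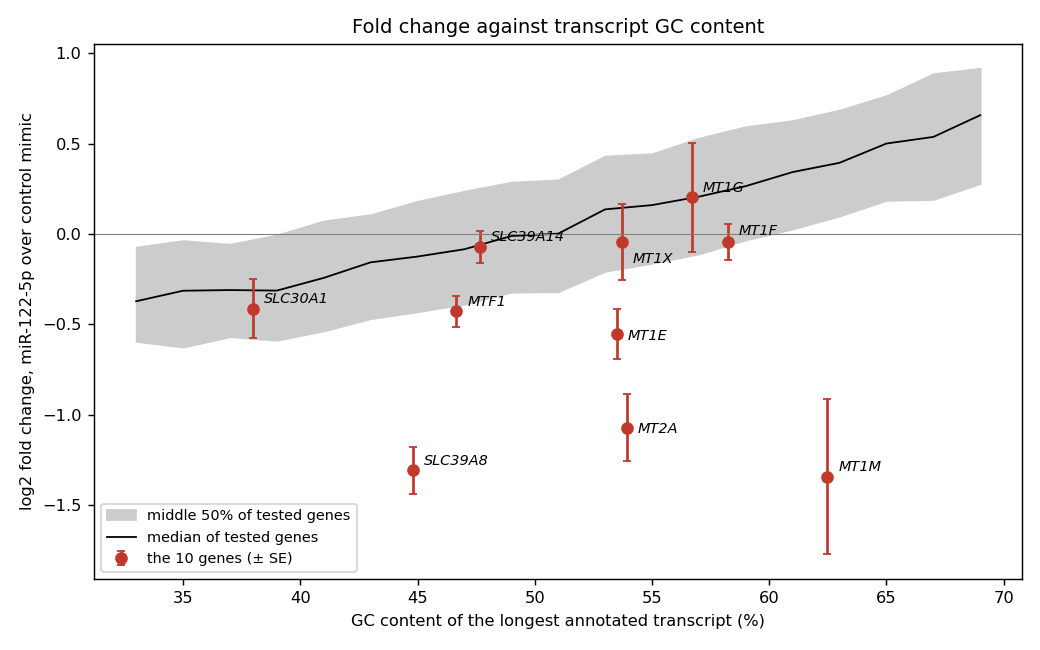
Log2 fold change (miR-122-5p over control mimic) of the 10 genes (red, ± SE) against the GC content of the longest annotated transcript, with the median (line) and the middle 50% (grey) of all tested genes in bins of 2 percentage points. SLC30A1 lies close to the median of genes of like GC content, while MT2A, MT1E, MT1M, MTF1 and SLC39A8 lie below the grey band and MT1F lies at its lower edge. MT1M passed the low-count filter through the control libraries, so its place adds no support.

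The metallothionein transcripts had a higher GC content than those of MTF1 and the transporters, and the falls of MT2A and MT1E ran against the trend. Tested genes within 2 percentage points of MT2A (53.9% GC) had a median log2 fold change of 0.15, and those near MT1E (53.5%) 0.13. Those near SLC39A8 (44.8%) had a median of -0.12 and those near MTF1 (46.7%) -0.09. With GC and length trends taken out MT2A was at -1.23 (edgeR adjusted p = 0.000698), MT1E at -0.71 (0.00420) and SLC39A8 at -1.13 (1.23e-08), and MT1F was called lower at -0.30 (0.0214). In that setting 6 of the 10 were lower and 0 higher, where 23.5% of all genes were lower and 23.3% higher (46.8% in all). These include MT1M, which passed the low-count filter through the control libraries. Once the replicate block was added 5 were lower, MT1M again among them, and MT1F was at -0.28 (edgeR adjusted p = 0.0534). With that block 45.4% of all 15471 genes tested were called, 3496 lower and 3528 higher. With the GC slope as a covariate, which overlaps with the grouping and widened the errors, only MTF1 (-0.47, edgeR adjusted p = 0.0211) and SLC39A8 (-0.94, 0.00197) were called lower, against 12.3% lower and 7.37% higher over all genes (19.7% in all), and SLC39A14 was called higher. MT2A was then at -0.71 ± 0.34 (edgeR adjusted p = 0.201, over settings 1.36e-10 to 0.201) and MT1E at -0.28 ± 0.27 (0.559, over settings 1.99e-07 to 0.559).

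**Figure D3:**
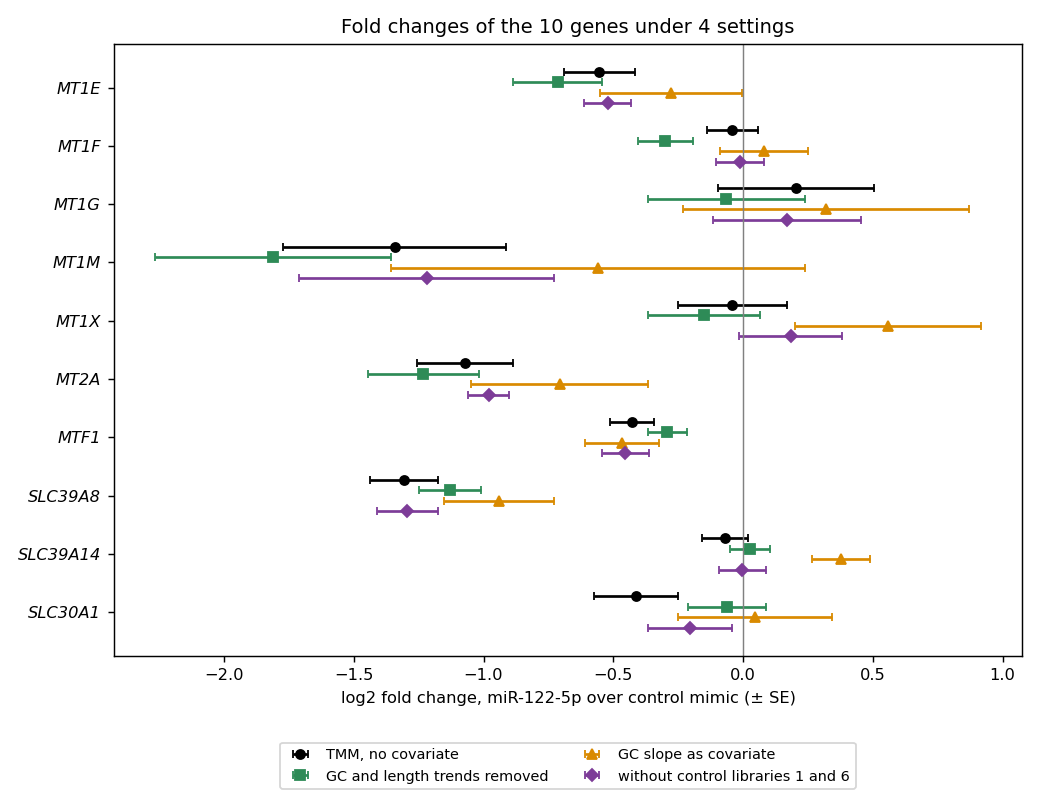
Log2 fold changes (± SE) of the 10 genes, miR-122-5p over control mimic, under 4 settings. The values of MT2A, MT1E, MT1M, MTF1 and SLC39A8 stay below 0 with all 4, and each has its widest error with the GC slope as a covariate. In that setting only MTF1 and SLC39A8 of these were called. MT1M passed the low-count filter through the control libraries, so its place here adds no support.

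Within the groups some of the genes varied together from library to library. As a description over 12 libraries, log2 CPM deviations from the group means had a Pearson r of 0.966 between MT2A and MT1E, 0.747 between MT2A and SLC39A8 and 0.713 between SLC39A8 and SLC39A14. Without control library 1 these were 0.949, 0.648 and 0.647. Between MTF1 and MT2A r was -0.308, and without control library 1 it was -0.070. Other pairs varied in opposite directions. For MT1F and MTF1 r was -0.77 (-0.74 without control library 1). For SLC30A1 it was -0.174 with MT2A and -0.235 with MT1E, and without control library 1 it was -0.757 and -0.708. These libraries share the same normalisation and the GC trend. A small part of the sequence of MT2A and MT1E also occurs in another gene (3.02% and 7.10% of 50-base words). Control library 1 was high and control library 6 low for both MT2A and MT1E, as the plot of deviations shows. Outside the 10 genes, among 8330 genes whose log2 CPM averaged 3 or more, those most like MT2A in these deviations were PCID2 (r = 0.920), RPS27AP16 (0.912), PCNA (0.894), B3GNT2 (0.883) and LCMT1 (0.881). MT1E, at 0.966, was above all of these. For SLC39A14 the genes outside the set were CELF1 (r = 0.972), MFSD14B (0.972), DDX3X (0.962), DYRK1A (0.955) and RB1CC1 (0.949).

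**Figure D4:**
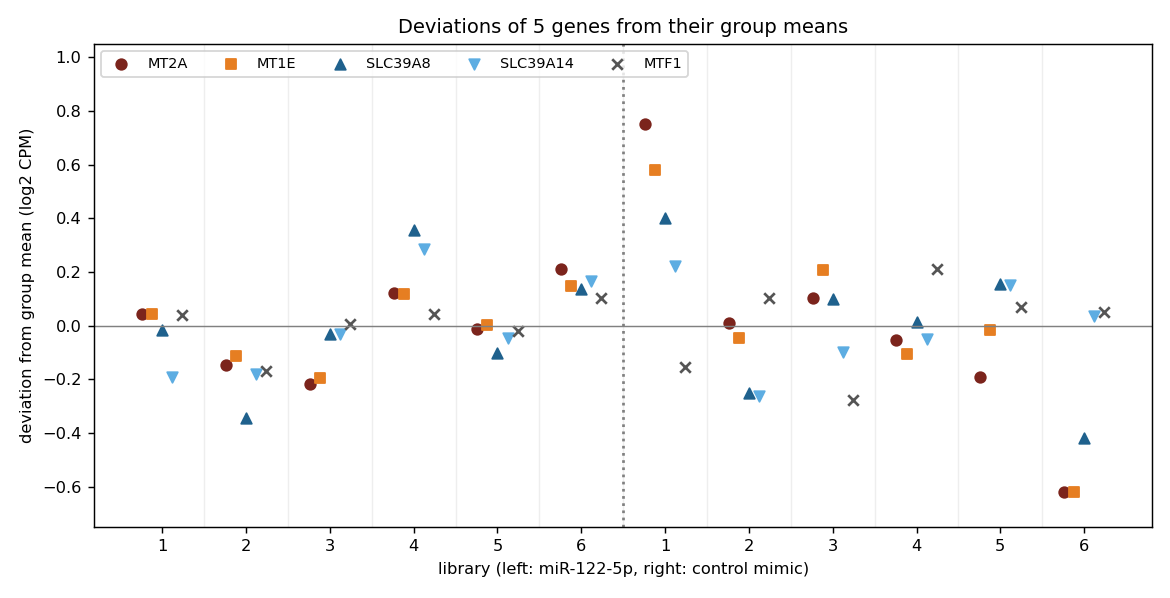
Deviation of log2 CPM from the group mean for MT2A, MT1E, SLC39A8, SLC39A14 and MTF1 in each miR-122-5p library (left) and control mimic library (right); replicate numbers carry no order. MT2A and MT1E share their sign in 10 of 12 libraries and are farthest from 0 in control libraries 1 and 6.

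Of 10 other metallothionein genes and pseudogenes, 5 (MT1B, MT1H, MT4, MT1CP and MT1IP) had 0 counts in every library and 2 were tested. MT1A, with 1 to 40 counts per library, fell by 1.5 ± 0.53 (edgeR adjusted p = 0.0208), with means of 0.239 ± 0.186 CPM with miR-122-5p and 0.692 ± 0.352 CPM with the control mimic. It passed the filter with 2 miR-122-5p and 5 control libraries over the cutoff, and its call ended with the GC slope as a covariate (edgeR adjusted p = 0.443). MT1L had a log2 fold change of 0.19 ± 0.51 and was not called. MT3, the isoform known from brain, had 15 counts over all libraries.

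The other zinc transporters moved in both directions. Of 22 listed, 15 were tested; 7 were higher, 3 lower and 5 not called, against 24.2% higher and 26.2% lower over all genes tested. Their median log2 fold change was 0.22. Among the ZIP importers 5 of 9 were higher and 1 lower, while SLC39A8 was lower. SLC39A4, the transporter of intestinal zinc uptake, averaged 68.5 ± 8.82 CPM with miR-122-5p and 37.7 ± 4.52 CPM with the control mimic (log2 fold change 0.86 ± 0.09, edgeR adjusted p = 3.34e-08). SLC39A3 was at 0.84 ± 0.12 (not called with the GC slope as a covariate, edgeR adjusted p = 0.223), SLC39A7, which releases zinc from the endoplasmic reticulum, at 0.68 ± 0.06, SLC39A13 at 0.48 ± 0.08 and SLC39A11 at 0.35 ± 0.07. SLC39A9 was lower (-0.34 ± 0.08). SLC39A1 (0.36 ± 0.24), SLC39A10 (0.02 ± 0.11) and SLC39A6 (-0.20 ± 0.09) were not called.

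Among the ZnT transporters outside the 10 genes, 2 of 6 were higher and 2 lower. SLC30A3, known for loading zinc into synaptic vesicles, averaged 38.7 ± 4.11 CPM with miR-122-5p and 16.8 ± 3.59 CPM with the control mimic (log2 fold change 1.20 ± 0.12, edgeR adjusted p = 1.55e-08). SLC30A5 was higher (0.22 ± 0.09), and its partner in the secretory pathway SLC30A6 (-0.36 ± 0.13) and the Golgi transporter SLC30A7 (-0.54 ± 0.10) were lower. SLC30A4 (-0.39 ± 0.23) and SLC30A9 (-0.11 ± 0.08) were not called. With GC and length trends taken out 8 of the 15 transporters were higher and 0 lower, where 23.3% of all genes were higher and 23.5% lower. SLC39A13 lost its call (0.11, edgeR adjusted p = 0.0901), as did SLC39A9, SLC30A6 and SLC30A7, while SLC39A10 (0.36, 0.00208) and SLC30A9 (0.20, 0.00927) were then called higher. With the GC slope as a covariate 5 were higher (SLC39A4, SLC39A7, SLC39A11, SLC30A3 and SLC30A5) and 0 lower, where 7.37% of all genes were higher and 12.3% lower. Without control libraries 1 and 6 there were 7 higher and 2 lower, where 23.2% of all genes were higher and 24.1% lower. SLC30A6 did not pass in that setting (edgeR adjusted p = 0.0880).

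**Figure D5:**
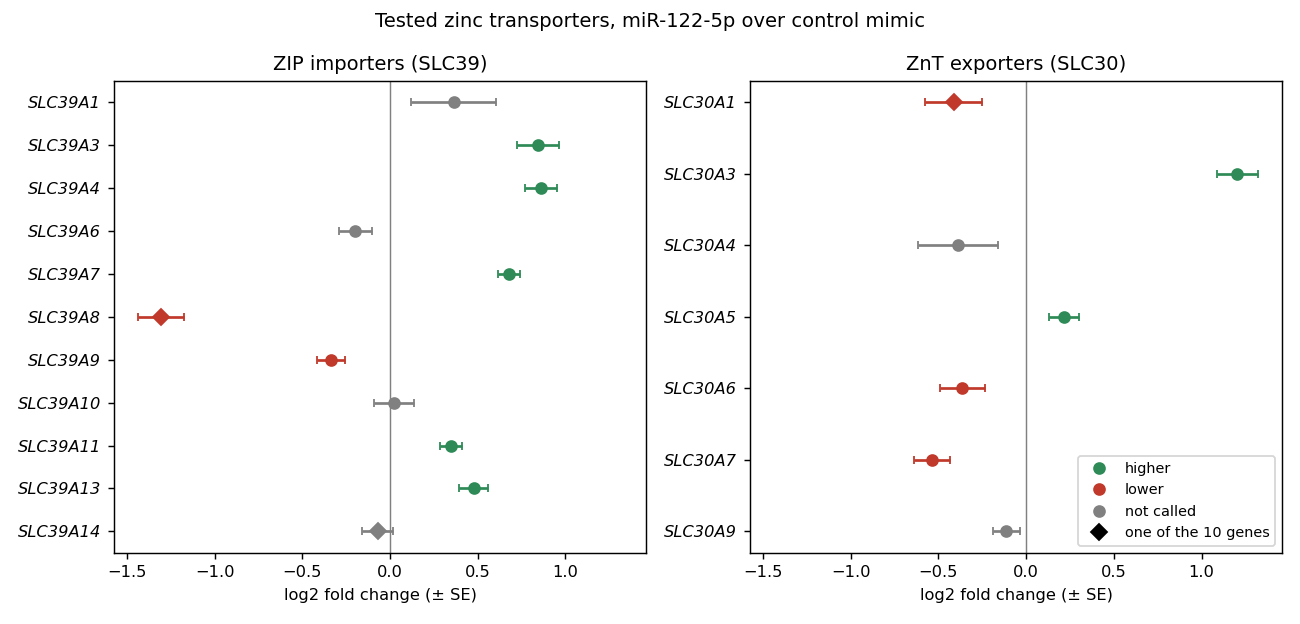
Log2 fold changes (± SE), miR-122-5p over control mimic, of the tested ZIP importers (left) and ZnT exporters (right); diamonds mark SLC39A8, SLC39A14 and SLC30A1. SLC39A8 at -1.31 has the lowest value of the importers, and SLC30A3 at 1.20 the highest of the exporters.

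Genes linked to MTF1 or to metal and oxidative stress were read beside these. Of 5 genes listed as candidate MTF1 targets outside the family, 3 were higher and 0 lower: SELENOH (0.62 ± 0.10), SELENOW (0.33 ± 0.08) and GCLC, a subunit of the enzyme that starts glutathione synthesis (0.28 ± 0.08). Over all genes tested 24.2% were higher and 26.2% lower. PGF, a growth factor, was at 0.60 ± 0.32 and was not called. TXNRD2, a mitochondrial thioredoxin reductase, was at 0.16 ± 0.09 and not called, and it was called lower with GC and length trends taken out (-0.21, edgeR adjusted p = 0.0170). The median of the 5 was 0.33. Of 10 heavy metal and oxidative stress responders, 6 were lower and 2 higher, with a median of -0.35, against the same shares over all genes. With GC and length trends taken out 4 were lower and 0 higher (23.5% and 23.3% of all genes), and with the GC slope as a covariate 3 were lower and 0 higher (12.3% and 7.37% of all genes). HMOX1, the haem-degrading enzyme, averaged 128.3 ± 32.2 CPM with miR-122-5p and 295.0 ± 39.4 CPM with the control mimic (-1.20 ± 0.14, edgeR adjusted p = 4.03e-06). The chaperone gene DNAJB1 (-0.62 ± 0.08), GCLM, the other subunit of that enzyme (-0.54 ± 0.11), and HSPA1B (-0.37 ± 0.07) were also lower. HSPA1A, a near-identical copy of HSPA1B, was higher (0.34 ± 0.08). How reads were divided between these copies was not measured, so both values are uncertain. The zinc-binding calgranulins were near the floor, with S100A8 at 18 and S100A12 at 6 counts over all libraries, and S100A9 (181 counts) was not called. The call of GCLM ended with GC and length trends taken out (edgeR adjusted p = 0.0860), and those of SELENOH and SELENOW with the GC slope as a covariate (0.803 and 0.437).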

How the data were processed

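Per the labels' protocols, Trizol RNA (1 µg a sample) went into NEBNext Ultra RNA libraries. The authors deposited raw counts for each gene in a single table. Per the submitters' processing notes, HISAT2 2.0.5 and featureCounts 1.5.0-p3 were used with hg38. Strand handling, multi-mapped reads and other settings: not given in the sources used here. Columns were assigned from their names and the sample titles, the control columns by their prefix and number.

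In R 4.3.3, filterByExpr kept 15471 genes (28537 had 0 counts), and groups were compared with edgeR 4.0.16 (TMM factors, robust quasi-likelihood test, Benjamini-Hochberg adjustment over all tested genes, threshold 0.05). CPM was computed with TMM-scaled library sizes, and its log2 with a prior count of 2. The standard error is the log2 fold change divided by the root of the F statistic. Symbols, coordinates, exon lengths, transcript GC content and 3′ UTRs came from GENCODE 29 (hg38), promoters and the microRNA from RefSeq (GRCh38.p14); 6 tested genes had no GC value. No library was a copy of another: chi-square divided by its degrees of freedom was 7.38 to 65.5 for libraries of one group. The 95% intervals are normal intervals from the standard error.

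Alternatives were DESeq2 1.42.0, limma-voom (limma 3.58.1), RLE factors, library totals, other filters, a replicate block, each library left out, a GC slope covariate, and GC and length trends removed as offsets (natural splines, 4 degrees of freedom). The fit was tested on simulated data. The members, the gene lists and the alternatives were chosen with earlier results of these data known. All 10 members are named, with every tested gene of the lists of other metallothioneins and zinc transporters. Up to 4 of smallest p are named from each other list. HSPA1A, the calgranulins beyond that, TXNRD2, COX17 and ATOX1 were added after their values were seen. The 5 genes outside the members of most like pattern to MT2A and to SLC39A14 are also named.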

Additional observations from a re-analysis of the deposited data

Results flagged for a closer look

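Values in 2 of 24 sets of 6 libraries (the 10 genes, the metallothionein sum and the MT2A share, each in both groups) had 1 library far from the others, by Dixon's test at its 95% critical value of 0.625; chance gives about 1 such set in 20. MT1F was at 27.03 CPM in miR-122-5p library 2, with the next library at 23.6 CPM. MT1X was at 4.37 CPM in control library 1, with the next at 2.65 CPM. MT2A in control library 1 (651.9 CPM) did not pass this test.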

How the results depend on the processing

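SLC39A8 and MTF1 kept their direction and their call in every alternative run. The GC slope covariate left 1140 genes higher and 1909 lower, against 3744 and 4055; the calls of MT1E (-0.28), MT2A (-0.71) and MT1M (-0.56) ended, and MT1F (0.080), MT1X (0.56), SLC30A1 (0.046) and SLC39A14 (0.38) changed sign, the last then being called. That covariate overlaps with the grouping, which widens errors. Removing the GC and length trends gave MT1F -0.30 (then called), MT1G -0.064, SLC30A1 -0.061 (call ended) and SLC39A14 0.028; with the replicate block added, MT1F -0.28 (edgeR adjusted p = 0.0534, not called), MT1G -0.024, SLC30A1 -0.066 and SLC39A14 0.028. With the replicate block alone SLC30A1 was at -0.40 (edgeR adjusted p = 0.0729, call ended) and MT1X at 0.0079; it changed no other call of the 10 genes. Over all genes the block gave 7584 calls; same-numbered libraries did not deviate together (r = -0.105 to 0.066), so the numbers were not taken as pairs. Library totals gave SLC30A1 -0.37 (call ended) and MT1X 0.0021, and limma-voom SLC30A1 -0.40 (call ended) and MT1X 0.0027. Without a low-count filter MT1M was at -1.32 (edgeR adjusted p = 0.0508), and the stricter filter left it out. Without control libraries 1 and 6 SLC30A1 was at -0.20 and MT1X at 0.18. Leaving out 1 library at a time gave MT1F -0.083 to 0.035, MT1X -0.13 to 0.18 and SLC30A1 -0.50 to -0.33 (call ended in 8 of 12). The sign changes of MT1F, MT1G and MT1X concern values that were not called, and the cause was not tested. No scaling moved the median of all genes by more than 0.05. MT1M, MT1A, MT1G and MT1X have few counts, and depth limits what can be said of them.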

Other observations

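Copper and glucocorticoid genes, which share binding partners or induction with metallothioneins, moved in both directions. Of 10 tested copper handling genes 2 were higher and 4 lower (24.2% and 26.2% of all genes tested), with a median log2 fold change of -0.07. CCS, the copper chaperone of superoxide dismutase, was at 0.67 ± 0.09 (edgeR adjusted p = 2.32e-06) and SOD1 itself at 0.25 ± 0.07, while SCO1, which delivers copper to cytochrome c oxidase, was at -0.61 ± 0.12 and the copper pump ATP7A at -0.40 ± 0.13. The call of ATP7A ended without control libraries 1 and 6 (edgeR adjusted p = 0.0700), with GC and length trends taken out (-0.07, 0.663) and with the GC slope as a covariate (0.722). SOD1 lost its call in both of those GC settings (edgeR adjusted p = 0.0644 and 0.171) and SCO1 with the GC slope (0.145). With the GC slope 1 copper gene was higher and 1 lower (7.37% and 12.3% of all genes). The lower gene was COX17 (-0.39, edgeR adjusted p = 0.0112), which was not called without the covariate (-0.06, 0.540). With GC and length trends taken out 2 were higher and 2 lower (23.3% and 23.5% of all genes). Of the higher genes, ATOX1 (0.24, edgeR adjusted p = 0.00967) was not called before that correction (0.06, 0.545).

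Of 7 tested glucocorticoid responders 2 were higher and 4 lower (24.2% and 26.2% of all genes tested), with a median of -0.21. With GC and length trends taken out 1 was higher and 2 lower (23.3% and 23.5% of all genes). The receptor gene NR3C1 was at -0.62 ± 0.08 and KLF9 at -0.49 ± 0.07, whereas TSC22D3 was at 0.42 ± 0.08 and PER1 at 0.52 ± 0.14. With the GC slope as a covariate KLF9 was the 1 gene of this list still called (lower), where 7.37% of all genes were higher and 12.3% lower.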
